A study of Mus musculus with 6 samples.

Results

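The transcripts described here are those of the BMP receptors and of the Smads that carry their signal, in the visual cortex of mice without *Chrdl1* and of wild-type mice. The rows of 10 genes were taken by symbol from a deposited table of 24453 genes. They are the type I receptors *Bmpr1a*, *Bmpr1b* and *Acvr1*, the type II receptors *Bmpr2*, *Acvr2a* and *Acvr2b*, the receptor-regulated Smads *Smad1*, *Smad5* and *Smad9*, and the common Smad *Smad4*. All 10 were in the table and all passed the filter of a mean of 1 FPKM. Levels are in FPKM, in which a gene's fragments are divided by its exon length and by the depth of its library.

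The series holds 3 libraries of *Chrdl1* knockout cortex (KO) and 3 of wild-type cortex (WT), all from male C57BL/6J mice on postnatal day 14, perfused with paraformaldehyde before dissection. *Chrdl1* encodes chordin-like 1, a secreted protein that binds BMPs and is made by astrocytes in the cortex. The labels do not describe the knockout allele or name a Cre driver, and whether the 3 libraries of a genotype come from separate mice is not said, so the p-values rest on a spread that may be technical. Replicates are numbered by the middle number of their titles, and libraries of the same number also share a longer code there, 1 code per number.

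BMPs are secreted dimers that bring type II and type I receptors together at the cell surface. Both are serine/threonine kinases: the type II receptor phosphorylates the type I receptor, which in turn phosphorylates a receptor-regulated Smad on its last serines. The phosphorylated Smad binds *Smad4*'s product and enters the nucleus, where the complex acts on target genes such as those of the Id family. *Bmpr2* is used mainly by BMPs, whereas the products of *Acvr2a* and *Acvr2b* also bind activins. In the developing forebrain the pathway is known for dorsal patterning and for favouring astrocyte fates.

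The last coding bases of the receptor-regulated Smads are shown because they are the part on which the receptors act, and because likeness between these genes bears on whether reads can be told apart. Capitals mark the last 12 coding bases before the stop codon, which encode the serine tail. Sequences are from GENCODE M21 on GRCm38 (mm10), at chr8:79339652-79339693 on the minus strand for *Smad1*, chr13:56737434-56737475 on the plus strand for *Smad5* and chr3:54797457-54797498 on the plus strand for *Smad9*.
Smad1: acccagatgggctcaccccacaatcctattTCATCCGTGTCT
Smad5: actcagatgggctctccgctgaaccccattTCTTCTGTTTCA
Smad9: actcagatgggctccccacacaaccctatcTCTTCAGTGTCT
Of these 42 bases, *Smad1* and *Smad9* shared 35, *Smad5* and *Smad9* 33, and *Smad1* and *Smad5* 31. Over the whole aligned coding sequence, identity was 78.2% for *Smad1* and *Smad9*, 77.5% for *Smad1* and *Smad5*, and 75.4% for *Smad5* and *Smad9*.

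The longest run of bases that any pair of genes within a role had in common, over their protein-coding transcripts, was 29 bases, between *Smad1* (chr8:79371813-79371841, minus strand) and *Smad9* (chr3:54782715-54782743, plus strand). It is printed as the worst case for reads that could come from either gene.
Smad1 and Smad9: tccaagcagaaggaggtctgcatcaaccc
Among the type I receptors the longest such runs were 20 bases, and those that *Acvr1* shares with each of the others overlap in the coding sequence of the kinase catalytic loop. They lie at chr2:58462919-58462938 and chr2:58462910-58462929, both on the minus strand, and are shown as the longest identical runs between pairs of type I receptor genes.
Bmpr1a and Acvr1: ctgaagagcaaaaacatcct
Bmpr1b and Acvr1: aaaaacatcctggtgaagaa
Between *Bmpr1a* and *Bmpr1b* the longest run was 16 bases, and between *Acvr2a* and *Acvr2b* it was 14. No source used here gives the read length.

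Estimated depth was 22.7 to 31.9 megareads in the KO libraries and 27.5 to 38.2 megareads in the WT libraries, and each member was covered by 209 to 7136 reads per library. *Chrdl1* averaged 0.161 ± 0.0364 FPKM in KO cortex and 3.44 ± 0.299 FPKM in WT cortex (SD, n = 3 each), 4.67% of the WT level, with a limma adjusted p of 0.000489. It was the only gene called among the 12863 tested at an adjusted p under 0.05, so 0.00777% of tested genes were called. At an unadjusted limma p under 0.05 there were 81 genes, or 0.63%, and 503 genes, or 3.91%, with the replicate number as a block. Markers of cortical neurons, astrocytes, oligodendrocytes, microglia and vessels were all detected. Those of mature oligodendrocytes (6 genes) summed to 1336, 2589 and 2016 FPKM in KO replicates 1, 2 and 3. In WT replicates 1, 2 and 3 they summed to 1704, 2263 and 2806 FPKM. All 6 had estimates, KO minus WT, below 0, and 0 were called. Red blood cell markers summed to 43.8 FPKM in KO replicate 2 and 8.81 to 13 FPKM elsewhere. Summed FPKM of 9 striatal neuron markers was 129, 297 and 132 in KO replicates 1, 2 and 3 and 302, 283 and 258 in WT replicates 1, 2 and 3. That of 4 choroid plexus markers was 313 in KO replicate 3 and 152 in WT replicate 1, against 3.99 to 6.91 in the other 4 libraries. In bulk tissue, fewer cells of a type and less RNA per cell cannot be told apart.

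None of the 10 receptor and Smad transcripts differed between KO and WT cortex by the test. Of the 10, 0 were called at an adjusted p under 0.05 and 0 at an unadjusted p under 0.05 (limma, with and without the replicate number as a block). Log2 fold changes, KO minus WT on the log2(FPKM + 1) scale, ran from -0.09 for *Acvr1* to 0.03 for *Smad4*, with 5 members above 0 and 5 below. Their median was -0.01, beside 0.01 over all tested genes. The KO and WT values overlapped for all 10 members, whereas they did not overlap for 379 tested genes (2.95%). The 95% intervals of all 10 lay between -0.33 and 0.28, which is 0.795 to 1.22 times the WT value on that scale. With the replicate block they lay between -0.23 and 0.18. The SEs and intervals given below for single genes are without the block unless it is named. Over all tested genes the median SE was 0.0968 without the block and 0.0576 with it. On the plain FPKM scale the ratio of KO to WT means was between 0.932 for *Acvr1* and 1.02 for *Smad4*.

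**Figure D1:**
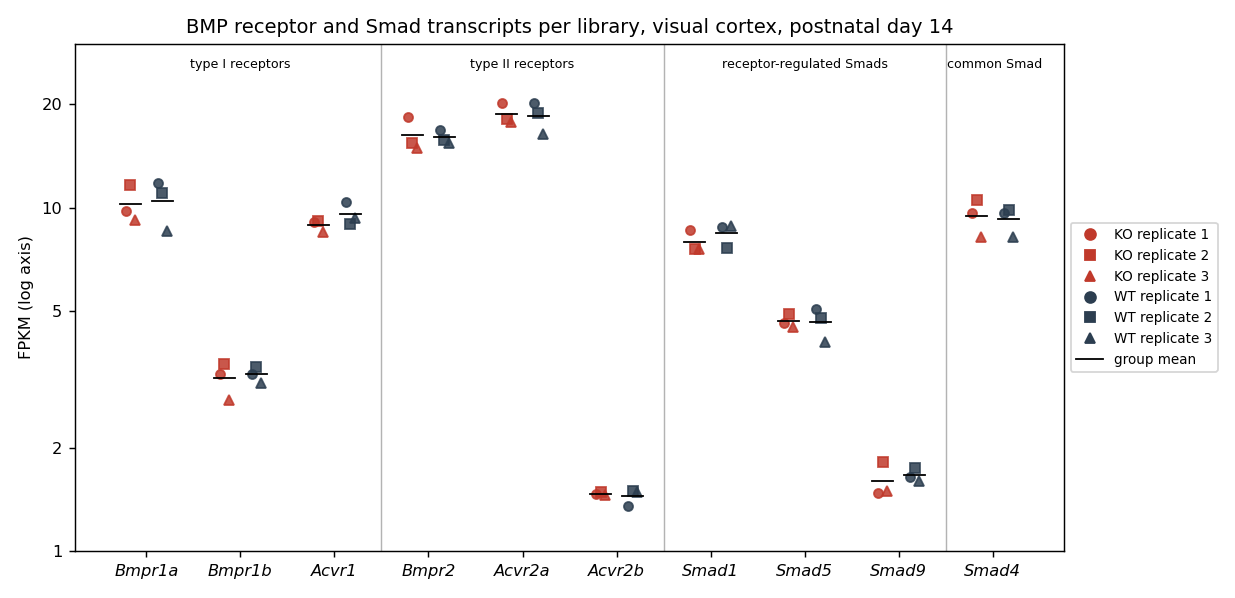
FPKM on a log axis for each of the 10 genes, with KO libraries in red on the left and WT libraries in dark blue on the right of each gene, symbols by replicate number and bars at the group means. The 2 groups overlap for each gene, while *Acvr2a* and *Bmpr2* sit above 14.9 FPKM and *Smad9* and *Acvr2b* below 1.82 FPKM in all 6 libraries.

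The genes differed far more from each other than between genotypes. On the per-length FPKM scale, the mean levels over the 6 libraries were, in descending order, *Acvr2a* (18.6), *Bmpr2* (16.2), *Bmpr1a* (10.3), *Smad4* (9.36), *Acvr1* (9.23), *Smad1* (8.17), *Smad5* (4.65), *Bmpr1b* (3.22), *Smad9* (1.63) and *Acvr2b* (1.45), a range of 12.8-fold. *Bmpr2* and *Bmpr1a* were separated with no overlap of their ranges, as were *Smad1* and *Smad5*, *Smad5* and *Bmpr1b*, and *Bmpr1b* and *Smad9*. The ranges of *Acvr2a* and *Bmpr2* overlapped, although *Acvr2a* was higher within each of the 6 libraries. *Smad4* and *Acvr1* could not be ranked, since each was the higher one in 3 libraries. *Smad9* was above *Acvr2b* within all 6 libraries, with ranges that overlapped.

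The place of *Acvr2b* in that order depends on the gene model. The deposited table divides its reads by 10581 bp of exon, whereas the longest protein-coding transcript of the gene in GENCODE M21 has 3175 bp. Dividing the same reads by that length would give 4.85 FPKM and move the gene from place 10 to place 7. The deposited row ends at chr9:119442148, whereas the GENCODE exons of the gene end at chr9:119434995. Reads beyond that end would not count for the GENCODE transcript, so 4.85 FPKM may be too high. How many reads lie there cannot be told from FPKM values. The next largest relative shift was that of *Smad1*, with 6.57 FPKM by the GENCODE length and 8.17 FPKM as deposited, and no other member moved by more than 1 place. The length divides KO and WT values of a gene alike, so their ratio in FPKM does not depend on it, whereas estimates on the log2(FPKM + 1) scale do. The estimate of *Acvr2b* was 0.015 there, 0.024 with a pseudocount of 0.1 and 0.028 with voom on recovered reads. These settings differ in more than the length, so the values do not isolate its part.

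*Bmpr1a* encodes the main broadly expressed type I receptor of BMP2 and BMP4 class ligands (NM_009758, chr14:34411068-34502546, minus strand). It measured 9.78, 11.7 and 9.22 FPKM in KO replicates 1, 2 and 3 and 11.8, 11 and 8.53 FPKM in WT replicates 1, 2 and 3. The highest and the lowest value were both WT, and the KO values fell between them. The log2 fold change was -0.03 (SE 0.13, 95% interval -0.33 to 0.28, limma adjusted p = 0.9999). It had the widest interval of the 10, and its coefficient of variation over the 6 libraries, 13.2%, was the largest, beside 9.04% for the median tested gene. Some of its exon bases, 290, also belong to an antisense gene in GENCODE, and the authors' command names no strand option, so reads from both cannot be told apart there.

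*Acvr1* encodes another type I receptor (NM_001110205, chr2:58446438-58566828, minus strand), which in mammals is known as the receptor mutated in fibrodysplasia ossificans progressiva. It measured 9.07, 9.14 and 8.51 FPKM in KO replicates 1, 2 and 3 and 10.4, 8.97 and 9.32 FPKM in WT replicates 1, 2 and 3. The lowest value was KO and the highest WT, with WT replicate 2 among the KO values. The mean was 8.91 ± 0.344 FPKM in KO and 9.56 ± 0.735 FPKM in WT (SD, n = 3 each). The log2 fold change of -0.09 (SE 0.08, interval -0.27 to 0.09) was the largest in size among the members and did not pass (limma unadjusted p = 0.290, or 0.161 with the replicate block). An exact 2-sided permutation test of the FPKM values gave p = 0.3, where 3 against 3 libraries cannot go below 0.1. This test takes no account of the pairing by title number. The estimate was -0.03 without WT replicate 1, the library with the highest value.

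*Bmpr1b* encodes the remaining type I receptor (NM_001277217, chr3:141837136-142169228, minus strand) and was the lowest of the role. It measured 3.29, 3.51 and 2.75 FPKM in KO replicates 1, 2 and 3 and 3.29, 3.42 and 3.09 FPKM in WT replicates 1, 2 and 3. Both the highest and the lowest value were KO, and the log2 fold change was -0.03 (SE 0.10, interval -0.25 to 0.19). *Bmpr1a* stood 2.76 to 3.60 times above *Bmpr1b* in FPKM across the 6 libraries.

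Within the type I role, *Bmpr1a* made up 45.7 ± 2.0% of the summed FPKM in KO and 44.7 ± 3.49% in WT, *Acvr1* 40.0 ± 2.15% and 41.2 ± 3.14%, and *Bmpr1b* 14.2 ± 0.745% and 14.1 ± 1.03% (SD, n = 3 each). The largest difference in share, KO minus WT, was -1.14 percentage points for *Acvr1*, smaller than either SD.

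*Acvr2a*, a type II receptor gene (NM_007396, chr2:48814109-48903264, plus strand), was the highest of the 10. It measured 20.2, 18.1 and 17.8 FPKM in KO replicates 1, 2 and 3 and 20.2, 18.9 and 16.5 FPKM in WT replicates 1, 2 and 3. In both genotypes replicate 1 was highest and replicate 3 lowest. KO minus WT came to 0.02 in log2 fold change (SE 0.09, interval -0.20 to 0.24). On 446 bases its exons overlap those of *Orc4*, a gene on the opposite strand that also has a row in the table, so values of both are uncertain to that extent.

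*Bmpr2*, whose product is the type II receptor most specific to BMPs (NM_007561, chr1:59764279-59878081, plus strand), measured 18.4, 15.5 and 14.9 FPKM in KO replicates 1, 2 and 3. In WT replicates 1, 2 and 3 it measured 16.9, 15.8 and 15.4 FPKM. Replicate 1 was again the highest in each genotype, and the KO values spanned those of WT, with a log2 fold change of 0.02 (SE 0.09, interval -0.20 to 0.23). *Bmpr2* rested on the most reads of any member, 3879 to 7136 per library.

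*Acvr2b* (NM_001313757, chr9:119402178-119442148, plus strand), whose product binds activins and growth differentiation factors with high affinity, varied least, with a coefficient of variation of 3.71%. At its fewest reads, 355 in KO replicate 2, counting error alone is 5.31%. The small spread is therefore not read as a trait of *Acvr2b*. Its 3 KO values, 1.46, 1.48 and 1.46 FPKM, lay within the WT values of 1.35, 1.49 and 1.49 FPKM. The log2 fold change was 0.01 (interval -0.17 to 0.20). In the type II role *Acvr2a* and *Bmpr2* took 51.4 ± 0.814% and 44.6 ± 1.16% of the summed FPKM in KO, and 51.4 ± 1.79% and 44.6 ± 1.42% in WT, which left 4.04 ± 0.348% in KO and 4.03 ± 0.481% in WT for *Acvr2b*. By the GENCODE lengths above and the same reads, the share of *Acvr2b* would be 13.1 ± 1.009% in KO and 13 ± 1.44% in WT. It may be too high for the reason given there. The share of *Bmpr2* would be 37.2 ± 1.32% in KO and 37.2 ± 0.998% in WT, and may be too low in turn. In deposited FPKM, the sum of the type II receptors was 1.44 to 1.81 times that of the type I receptors in KO libraries and 1.51 to 1.59 times in WT libraries.

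**Figure D2:**
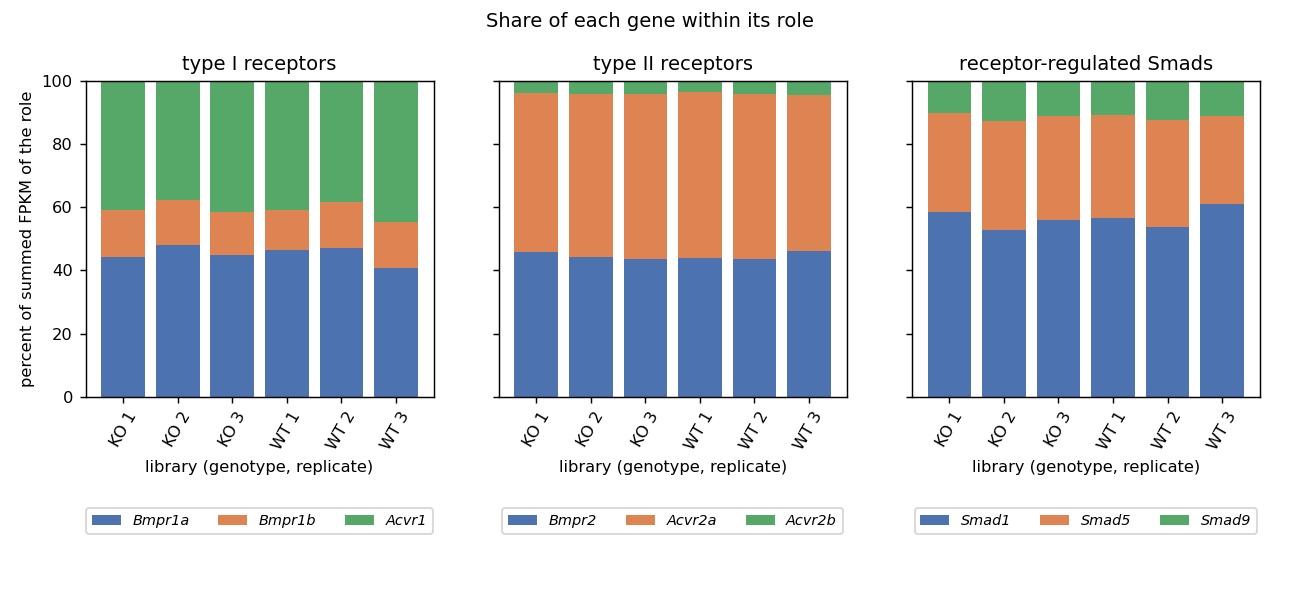
Percent of the summed FPKM of a role that each gene makes up, as stacked bars per library (KO left, WT right). Shares depend on the exon lengths used. With the deposited ones, *Acvr2b* stays between 3.51% and 4.45% of the type II role and *Smad1* between 52.9% and 60.9% of the receptor-regulated Smads in the 6 libraries.

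*Smad1* (NM_008539, chr8:79338398-79399468, minus strand) was the most abundant receptor-regulated Smad transcript. It measured 8.62, 7.56 and 7.59 FPKM in KO replicates 1, 2 and 3 and 8.81, 7.61 and 8.83 FPKM in WT replicates 1, 2 and 3. The KO value was the lower one at each of the 3 numbers, by little at numbers 1 and 2, yet KO replicate 1 stood above WT replicate 2. It was the 1 member of 10 that was lower in KO at all 3 numbers, where 9.59% of tested genes were, and no member was higher at all 3, where 12.3% of tested genes were. The mean was 7.92 ± 0.606 FPKM in KO and 8.42 ± 0.698 FPKM in WT (SD, n = 3 each). The log2 fold change of -0.08 (SE 0.09, interval -0.28 to 0.13) did not pass (limma unadjusted p = 0.412, or 0.228 with the replicate block). The exact permutation test, which leaves out the pairing by title number, gave p = 0.2. Without both libraries numbered 3 it was -0.02.

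*Smad5* (NM_008541, chr13:56703010-56742378, plus strand), which acts beside *Smad1* in the same signal, measured 4.62, 4.91 and 4.48 FPKM in KO replicates 1, 2 and 3 and 5.07, 4.77 and 4.07 FPKM in WT replicates 1, 2 and 3. The KO values lay inside the WT range, and the log2 fold change was 0.01 (SE 0.09, interval -0.20 to 0.22). A small RNA gene shares 100 of its exon bases in GENCODE.

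*Smad9* (NM_019483, chr3:54755582-54801269, plus strand) encodes the third receptor-regulated Smad of the BMP branch. It was the lowest of them, at 1.48, 1.82 and 1.5 FPKM in KO replicates 1, 2 and 3 and 1.65, 1.75 and 1.6 FPKM in WT replicates 1, 2 and 3. The KO values spanned the WT values, and replicate 2 was highest in both genotypes. Its log2 fold change was -0.04 (SE 0.09, interval -0.25 to 0.17). It rested on the fewest reads, 209 in KO replicate 1, where counting error alone is 6.92%. Of the summed receptor-regulated Smads, *Smad1* made up 55.8 ± 2.83% in KO and 57.2 ± 3.55% in WT, *Smad5* 32.9 ± 1.48% and 31.5 ± 3.02%, and *Smad9* 11.3 ± 1.36% and 11.3 ± 0.925%. By the GENCODE lengths, *Smad1* would make up 50.4 ± 2.87% in KO and 51.8 ± 3.62% in WT.

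*Smad4*, whose product is shared with the TGF-beta and activin branches, measured 9.65, 10.5 and 8.22 FPKM in KO replicates 1, 2 and 3 and 9.68, 9.85 and 8.20 FPKM in WT replicates 1, 2 and 3. Libraries of the same number were close, nearly equal at numbers 1 and 3. The log2 fold change was 0.03 (SE 0.11, interval -0.22 to 0.28), and the interval narrowed to -0.09 to 0.15 with the replicate block. *Smad4* reached 0.606 to 0.739 of the summed receptor-regulated Smads in KO libraries and 0.565 to 0.697 in WT libraries.

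**Figure D3:**
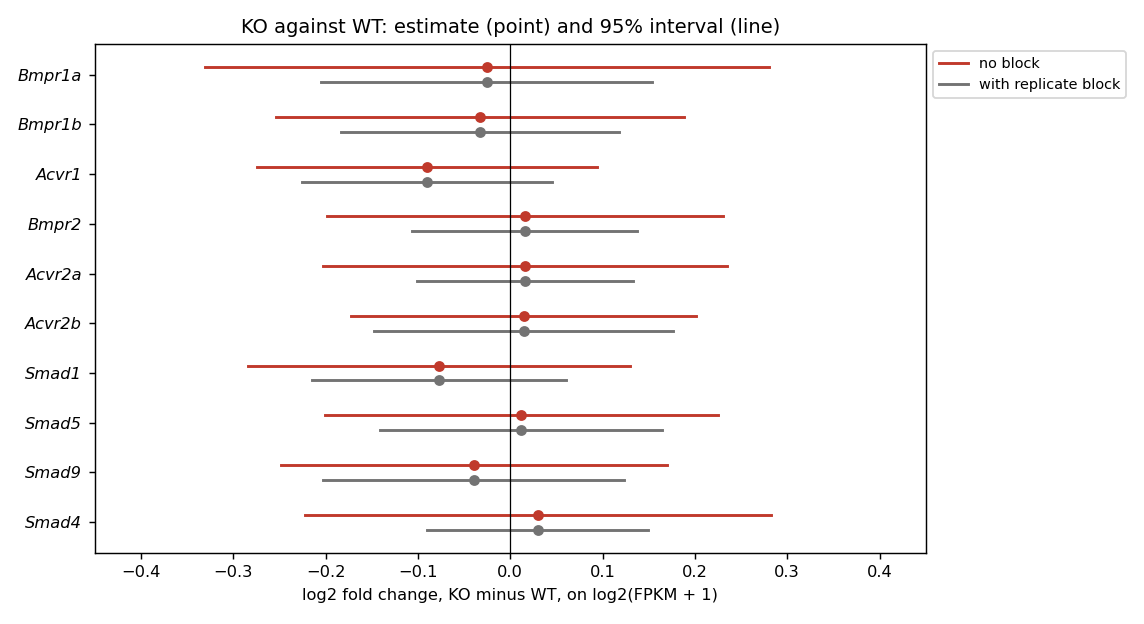
Log2 fold change, KO minus WT, of each gene on the log2(FPKM + 1) scale, with points at the limma estimates and lines over the 95% intervals, without a block in red and with the replicate number as a block in grey. All 20 intervals include 0, and the widest without the block is that of *Bmpr1a* at -0.33 to 0.28.

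The title number took more of the members' variation than genotype did, with 2 degrees of freedom for the number and 1 for genotype. On the log2 scale, the number accounted for 38.2% (*Acvr1*) to 95.5% (*Smad4*) of a member's sum of squares, with a median of 74.8%, and genotype for a median of 2.48%. This is a description of 6 values per gene. It is not particular to these genes, since the medians over all tested genes were 77.3% and 3.67%. Genotype took its largest shares in *Acvr1* (33%) and *Smad1* (17.4%). Per degree of freedom the number took more in 9 of the 10 members, the exception being *Acvr1* with 19.1% for the number and 33% for genotype. The lowest library of 7 of the 10 members was a replicate 3, either KO or WT. The share over all tested genes was not computed, so this count is not read as a trait of the members. The mean of the pair numbered 3 was 8.88 FPKM for *Bmpr1a*, against 11.4 for the pair numbered 2, a 1.28-fold spread, and 8.21 against 10.2 FPKM for *Smad4*, a 1.24-fold spread. Summed FPKM of 6 excitatory cortical neuron markers was 1281 in KO replicate 3 and 1235 in WT replicate 3, against 1058 to 1144 in the other 4 libraries. That of 6 interneuron markers was 603 and 642, against 534 to 568. No marker of these lists was at 0 in all libraries, and their part in the spread of the members was not tested.

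Within title numbers the members moved in mixed directions. KO was higher than WT for 3 of 10 members at number 1, 6 at number 2 and 4 at number 3. In log2(FPKM + 1), *Bmpr1a* had the largest single difference, -0.25 at number 1, but 0.07 and 0.10 at numbers 2 and 3. *Acvr1* stood at -0.18, 0.02 and -0.12, and *Smad1* at -0.03, -0.01 and -0.20. *Bmpr2* was 0.12 at number 1 and -0.03 and -0.04 at numbers 2 and 3. At number 1, KO held less choroid plexus marker (6.91 FPKM in KO and 152 in WT) and less striatal marker (129 FPKM in KO and 302 in WT). At number 3, KO again held less striatal marker (132 FPKM in KO and 258 in WT) but more choroid plexus marker (313 and 5.52). Number 2 had 297 and 283 FPKM of striatal marker and 4.24 and 3.99 of choroid plexus marker. The part of either in these differences was not tested.

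**Figure D4:**
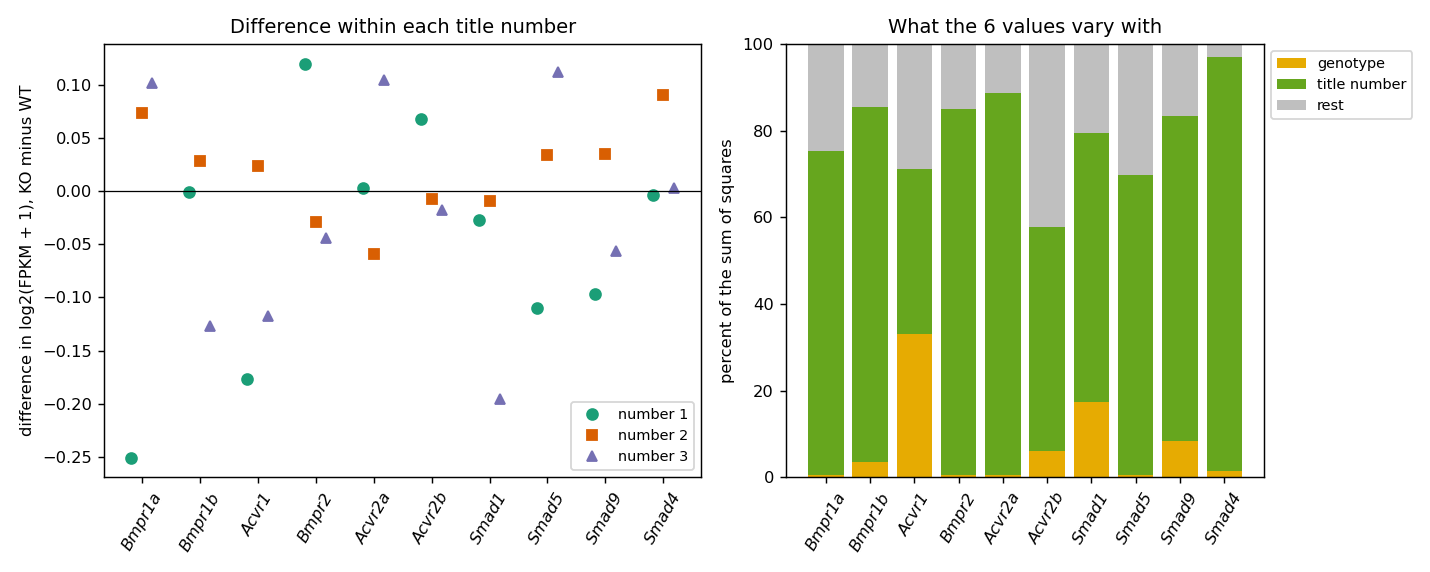
Left, difference in log2(FPKM + 1), KO minus WT, for each gene within title numbers 1, 2 and 3. Right, percent of each gene's sum of squares over the 6 libraries that goes with genotype, with title number and with neither: *Smad1* is the 1 gene below 0 at all 3 numbers, and the title number, with 2 degrees of freedom against 1, takes more than genotype for all 10 genes, and per degree of freedom for all but *Acvr1*.

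The other genes of the pathway, 88 in 9 lists by role, were read from the same fit, and 63 passed the filter. Apart from *Chrdl1* itself 0 were called, and 1 had an unadjusted limma p under 0.05, or 2 with the replicate block. Of 6 other type I and type II receptors of the TGF-beta family, 4 were tested and 0 called. *Acvr1b*, an activin type I receptor gene, was above all the BMP receptors at 31.9 ± 4.08 FPKM in KO and 30.7 ± 5.51 FPKM in WT, and *Tgfbr1* and *Tgfbr2* had log2 fold changes of -0.07 and 0.07. Of 8 co-receptors and the pseudoreceptor, 5 were tested and 0 called, with all 5 estimates above 0 (0.04 to 0.10) and a median of 0.05, beside 0.01 over all tested genes. The BMP co-receptor gene *Rgma* measured 22.8 ± 5.79 FPKM in KO and 20.9 ± 3.05 FPKM in WT, and *Neo1*, which encodes neogenin, had a log2 fold change of 0.04. *Tgfbr3* was at 0.08.

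Neither Smad of the activin and TGF-beta branch was called. *Smad3* averaged 8.45 ± 1.59 FPKM in KO and 9.11 ± 1.76 FPKM in WT, and *Smad2* 4.62 ± 0.124 and 4.71 ± 0.315 FPKM. Inhibitory Smads are induced by the pathway and block its receptors. Of these, *Smad7* stood at 3.60 ± 0.338 FPKM in KO and 3.65 ± 0.779 FPKM in WT, and *Smad6*, at 0.639 ± 0.0284 and 0.636 ± 0.156 FPKM, was under the filter and not tested. Of 21 regulators of receptors and Smads, 19 were tested and 0 called, with 6 estimates above 0 and 13 below. *Fkbp1a*, whose product keeps the type I receptor silent without ligand, measured 224 ± 21.3 FPKM in KO and 225 ± 23.1 FPKM in WT. *Strap*, *Zfyve9* and *Smurf2*, a ubiquitin ligase gene, had log2 fold changes of 0.00, 0.06 and -0.08. Of 6 genes of the Smad-independent branch 0 were called, with *Limk1*, the gene of a kinase that binds the tail of the *Bmpr2* product, at 20.9 ± 0.732 FPKM in KO and 20 ± 0.294 FPKM in WT. *Limk2* and *Xiap* were at -0.01 and -0.06.

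Readouts and inputs of the pathway were likewise not called. Of 6 BMP target genes 5 were tested, with 1 estimate above 0 and 4 below. *Id1* measured 10.5 ± 0.798 FPKM in KO and 11.4 ± 1.29 FPKM in WT, with *Id2* and *Id3* at log2 fold changes of 0.06 and -0.03. Of 22 ligand genes 11 were tested, with 7 estimates above 0 and 4 below. *Bmp6* had an unadjusted limma p of 0.0434, and 0.018 with the replicate block. It measured 2.84, 2.88 and 2.84 FPKM in KO replicates 1, 2 and 3 and 1.95, 2.4 and 2.56 FPKM in WT replicates 1, 2 and 3, without overlap (log2 fold change 0.23, limma adjusted p = 0.9999). Summed FPKM of 7 meningeal fibroblast markers was 106, 84.8 and 108 in KO replicates 1, 2 and 3 and 78.7, 82.3 and 84.8 in WT replicates 1, 2 and 3, with KO replicate 2 nearly equal to WT replicate 3, and its part in the *Bmp6* difference was not tested. *Bmp7*, *Gdf1* and *Inha* were at 0.14, 0.00 and -0.10, and the value of *Gdf1* is uncertain because the gene shares a transcript with *Cers1*. Of 15 secreted antagonists 10 were tested, and *Chrdl1* alone was called, lower in KO. *Twsg1*, which encodes a BMP-binding protein that acts with chordin, measured 9.1, 7.51 and 8.02 FPKM in KO replicates 1, 2 and 3 and 7.34, 6.87 and 7.3 FPKM in WT replicates 1, 2 and 3. The KO values lay above the WT values without overlap, with a log2 fold change of 0.17 and an unadjusted limma p of 0.0858, or 0.0207 with the replicate block (adjusted p 0.999). *Bmper*, named after its values were seen, also did not overlap, at 2.58 ± 0.0502 FPKM in KO and 2.34 ± 0.0592 FPKM in WT (SD, n = 3 each), with a log2 fold change of 0.10. Its unadjusted limma p was 0.234, or 0.164 with the replicate block. Of the 63 tested genes of the 9 lists, only *Chrdl1*, *Bmp6*, *Twsg1* and *Bmper* had values without overlap, beside 2.95% of all tested genes. These few genes are not read as a pattern of the pathway. *Fstl1* was at 0.09 and *Nbl1* at 0.07. Over the 9 lists the median log2 fold change ran between -0.06 for the activin and TGF-beta Smads and 0.05 for the co-receptors and the antagonists.

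**Figure D5:**
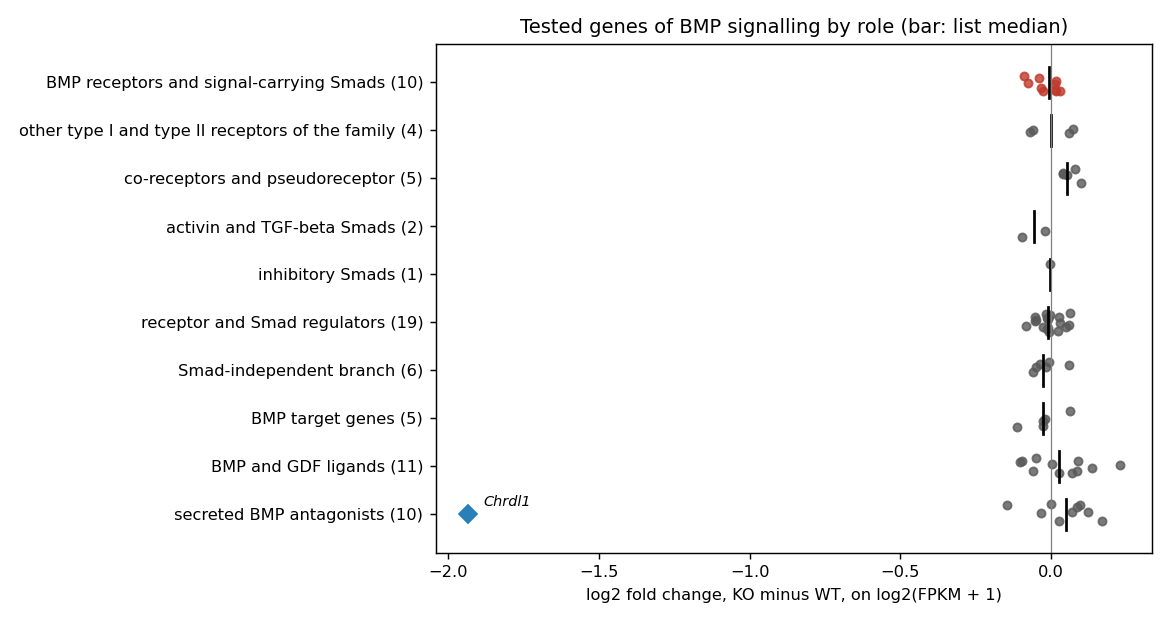
Log2 fold change, KO minus WT, of every tested gene in the 10 lists, with the number of tested genes after each list name, black bars at the list medians and the called gene as a blue diamond. *Chrdl1*, at -1.93, stands alone, and the 10 receptors and Smads (red) lie between -0.09 and 0.03.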

How the data were processed

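The authors deposited 1 table of FPKM values with 24453 gene rows and an exon length for each. Per the file headers it was made with the HOMER command analyzeRepeats.pl on mm10, counting over exons and condensing transcripts to 1 row per gene; it lists 12 libraries, and the 6 without a column in the table were not analysed here. FastQC, STAR 2.4.0k and HOMER 4.8.3 are the tools named, per the submitters' processing notes. The members and lists were chosen with earlier results of these data known.

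Whole reads were recovered from the 1-read steps of the FPKM values (100.0% of 4897 to 5849 checked values per library whole within 0.1 read), which also gave the depth. Counting errors cover counting only.

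KO and WT were compared by a 2-sided test in limma 3.58.1 under R 4.3.3, with an intensity trend. It ran on log2(FPKM + 1) over the 12863 genes with a mean of at least 1 FPKM, and Benjamini-Hochberg adjustment over all of them. This scale understates changes of low genes. The method was also run on simulated data, with the outcome not given here, so no power is claimed from it. Libraries that share a title number deviated together (correlations of deviations from the group means 0.43, 0.71 and 0.67, and -0.61 to -0.06 for other pairings), so by these data the numbers pair the libraries. A fit with the number as a block was an alternative, beside another pseudocount (0.1), no filter, no trend, quantile normalization, voom on recovered reads, and leaving out libraries. No duplicate libraries were found (chi-square per degree of freedom at least 2.79). All 10 members were named, and *Chrdl1*. From each other pathway list the rule named the 2 genes of highest level and the 2 of smallest p. Sequences, lengths and exon overlaps came from GENCODE M21 (Python 3.11.15, Biopython 1.88).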

Additional observations from a re-analysis of the deposited data

How the results depend on the processing

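No member was called under any of the 16 alternatives run, and all 160 alternative estimates of the members had an unadjusted p above 0.05 (lowest 0.126). The direction of each member was kept in all 70 estimates from the other pseudocount, filter, trend, normalization, block and voom settings. Without the filter, without the trend, or with the block but no voom, the estimate is the same difference of group means as reported. Its direction could not change under those settings, so they show no stability. The other pseudocount, quantile normalization and voom could have changed it. Leaving out libraries turned the sign of 7 members: the ranges were -0.15 to 0.088 for *Bmpr1a*, -0.090 to 0.044 for *Bmpr1b*, -0.072 to 0.071 for *Bmpr2*, -0.062 to 0.079 for *Acvr2a*, -0.014 to 0.031 for *Acvr2b*, -0.062 to 0.073 for *Smad5* and -0.046 to 0.12 for *Smad4*. They stayed below 0 for *Acvr1* (-0.15 to -0.03), *Smad1* (-0.14 to -0.02) and *Smad9* (-0.10 to -0.01). Leaving out both libraries of a number was chosen after seeing the data.

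Of all tested genes, 1 was called in the analysis reported and with the replicate block, 2 with the pseudocount of 0.1, 6 without the filter (19781 genes tested), 2 with voom and the replicate block together, and 0 to 4 with libraries left out. It was 4 without KO replicate 2, 2 without WT replicate 2, and 0 without both libraries numbered 1 or both numbered 2, where *Chrdl1* had limma adjusted p-values of 0.244 and 0.0906, at log2 fold changes of -1.91 and -1.93 beside -1.93 over all 6 libraries, and the called pathway genes were 0 in place of 1. The cause was not tested. KO minus WT differences in share within roles moved by less than the larger of the KO and WT SDs in all 63 alternative values. With 1 library left out this could not be otherwise, since dropping 1 of 3 values cannot move a mean by its SD. Those values therefore show no stability. Some differences changed sign: without WT replicate 3 the difference was -0.273 points for *Smad5* (1.44 with all libraries), -1.01 for *Bmpr1a* (0.991) and -1.02 for *Acvr2a* (0.0032). The replicate block changed no call on log2(FPKM + 1); with voom it gave 2 called genes, beside 1 without it.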
